A study of Oryza sativa with 6 samples.

Results

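Abscisic acid (ABA) is a hormone that promotes leaf senescence, and the genes described here are some of those for its synthesis, breakdown and signal. They are ZEP, the zeaxanthin epoxidase of the carotenoid branch that leads to ABA, the ABA 8'-hydroxylase genes ABA8OX1 and ABA8OX2, and ABF2, a bZIP transcription factor gene that RefSeq also lists as AREB1 and BZIP23. These 4 genes were taken by name out of 17905 rice genes that had at least 1 probe set listed for them alone, and each was measured by 1 probe set. The members were picked with the differences between these arrays in view, so their values are given as a description, with no p-value, and counts of members past a threshold stand only beside the share of all probe sets.

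The leaves were the third leaf of 30-day-old plants of the rice cultivar Nagina22 (N22), detached and kept in darkness so that they senesced (dark-induced senescence, DIS). In the BA-treated group they lay in 35 ml of solution with 2 mg/ml of 6-benzyl adenine (BA, a synthetic cytokinin), made with 0.1N NaOH and 0.02% tween20. The untreated group lay in NaOH and tween20 without BA, so both groups shared the cut, the dark and the solvent. Each group had 3 arrays from samples of 5 g of leaf, counted as biological replicates in the study's methods. The methods and the extraction protocol give 72 h of DIS, whereas 1 label field gives 2 h for both groups, and the arrays are read here as 72 h. There were no leaves from before the dark period, so higher or lower always means BA-treated against untreated leaves at the same time. Because the RNA came from leaf pieces that hold many cell types, fewer cells of a type and less RNA per cell cannot be told apart.

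Plants make ABA from carotenoids in the plastid, where zeaxanthin epoxidase supplies violaxanthin for the later cleavage steps. ABA 8'-hydroxylases, cytochrome P450 enzymes of the CYP707A family, start its oxidation to phaseic acid and so lower its level. ABA that is perceived binds PYL receptors, which then hold back group A protein phosphatases (PP2C). The SnRK2 kinases, called SAPK in rice, are thereby released and phosphorylate bZIP factors of the ABF group, which turn on ABA-responsive genes.

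A signal here is the deposited intensity of a probe set on a linear scale, with a lowest value of 16 and a median between 22.5 and 23.3 on each array. Fold changes were taken on log2(signal + 1). Since a constant is already in the values, folds of dim probe sets are understated. Over all 57258 rice probe sets limma called 91 (0.159%) at an adjusted p under 0.05, and the median log2 change was -0.0035. The 28S rRNA control read 47.1, 42.1 and 346 in untreated replicates 1 to 3 and 28.3 to 35.4 on the BA-treated arrays, so it was lower on every BA-treated array and far higher in untreated replicate 3. BA-treated replicates 2 and 3 were the closest pair: the log2 difference between them had an SD of 0.160, and for the other pairs of arrays that SD lay between 0.416 and 0.615. The poly-A and the hybridization control RNAs also read lower on each BA-treated array than on any untreated one, as did 28S rRNA, with mean differences of -1.08, -0.45 and -1.44 on the log2 scale (each exact permutation test, two-sided, p = 0.1, the smallest that 3 against 3 allow). The part of these array differences in the results was not tested. The leaf genes RBCS, RCA, CAB2R and PETC had mean signals between 151 and 1546, and 6 endosperm and meristem genes had mean signals between 17.6 and 73.3. Of 6 type-A response regulators, which cytokinin induces, 5 had a log2 change above 0. For 4 of them every BA-treated array lay above every untreated one, against a background of 6.71% of probe sets in that direction.

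ZEP, the synthesis gene among the members, was dim and differed little between the groups. Its signals were 69.2, 51.8 and 63.7 in untreated replicates 1 to 3 and 60.5, 46.9 and 42.4 in BA-treated replicates 1 to 3. The groups overlapped, because BA-treated replicate 1 read higher than untreated replicate 2. The means were 61.6 ± 8.88 (SD, n = 3) without BA and 49.9 ± 9.47 (SD, n = 3) with it, a log2 change of -0.30 (standard error 0.17) that corresponds to 1.23-fold lower. On the log2 scale this was little more than the spread within either group, with SDs of 0.21 and 0.26. ZEP was the only member whose BA-treated arrays spread more widely than its untreated ones.

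ABA8OX2, a gene of ABA breakdown, was higher in BA-treated leaves. Its signals were 120, 207 and 288 in the untreated replicates and 895, 1499 and 1363 in the BA-treated ones. Every BA-treated array lay above every untreated array, and the lowest BA-treated signal was 3.11 times the highest untreated signal. The means were 1253 ± 317 in BA-treated and 205 ± 83.8 in untreated leaves (SD, n = 3 each). The log2 change was 2.66 (standard error 0.36), or 6.31-fold. Among all rice probe sets 57 had a larger absolute log2 change. When single arrays were left out the log2 change stayed between 2.32 (without untreated replicate 1) and 2.95 (without untreated replicate 3). Its probe set is of the _s_at class, whose probes can match more than 1 transcript, so a related transcript could share this signal.

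ABA8OX1, the other breakdown gene among the members, did not follow ABA8OX2. Its signals were 805, 2333 and 67.4 in untreated replicates 1 to 3 and 307, 237 and 217 in BA-treated replicates 1 to 3. All 3 BA-treated arrays fell inside the untreated range, below replicates 1 and 2 and above replicate 3. Untreated leaves therefore differed 34.6-fold among themselves and BA-treated leaves 1.42-fold. The mean signal was 1069 ± 1156 (SD, n = 3) without BA and 254 ± 47.4 (SD, n = 3) with it.

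The size of the ABA8OX1 difference depended on the scale and on single arrays. The ratio of the mean signals was 4.21-fold in favour of untreated leaves, whereas the means on the log2 scale gave a log2 change of -1.003 (standard error 1.24), or 2.00-fold. Without untreated replicate 3 the log2 change was -2.45 and the groups no longer overlapped. Without untreated replicate 2 it was 0.10, the opposite sign, and without untreated replicate 1 it was -0.67. Leaving out a BA-treated array moved it only between -1.15 and -0.90. Among the settings tried the sign for this gene thus turned only without untreated replicate 2, and the size moved with each untreated array left out. Untreated replicate 3 is the array with the high 28S rRNA control, and whether that bears on this gene was not tested.

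**Figure D1:**
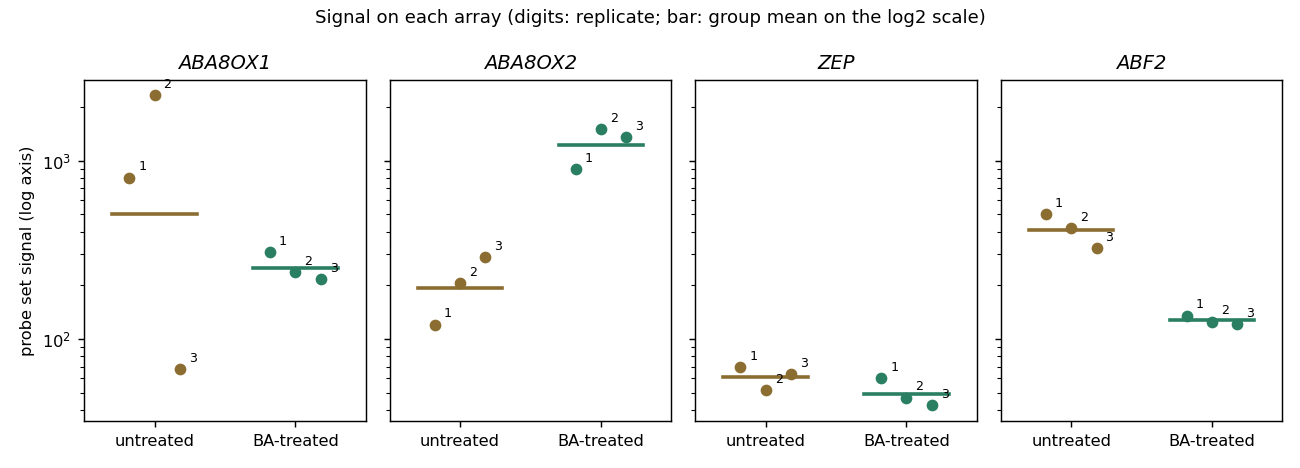
Signal of each probe set on the 3 untreated and 3 BA-treated arrays (log axis), with digits for the replicate and bars for the group mean on the log2 scale. ABA8OX2 lies higher and ABF2 lower on all BA-treated arrays, ZEP overlaps, and the untreated ABA8OX1 signals run from 67.4 to 2333 around BA-treated signals of 217 to 307.

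The hydroxylases also ran in different orders among the untreated arrays. ABA8OX1 was highest in replicate 2 and lowest in replicate 3, and ABA8OX2 was highest in replicate 3 and lowest in replicate 1. Replicate 3 thus held the lowest ABA8OX1 and the highest ABA8OX2 signal of the untreated leaves. Among the BA-treated arrays ABA8OX1 was highest and ABA8OX2 lowest in replicate 1. The log2 change of ABA8OX2 minus that of ABA8OX1 was 3.66, and it ran from 2.61 without untreated replicate 2 to 5.39 without untreated replicate 3. This pair was chosen for its opposite pattern, so the difference carries no test.

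Spread between replicates set ABA8OX1 apart from the other members. The SD on the log2 scale was 2.61 over its untreated and 0.26 over its BA-treated arrays, a ratio of 10.1. Only 42 of the 57258 rice probe sets had a larger SD over the untreated arrays. For ABA8OX2 the SDs were 0.63 untreated and 0.40 BA-treated, and for ABF2 they were 0.31 and 0.08. A wider spread without BA was common on these arrays, and was seen for 61.0% of all rice probe sets. It was seen for 32 of the 41 other ABA genes described here, with median SDs of 0.37 untreated and 0.15 BA-treated. BA-treated replicates 2 and 3 were the closest pair of arrays, and the part of this in the small BA-treated SDs was not tested.

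**Figure D2:**
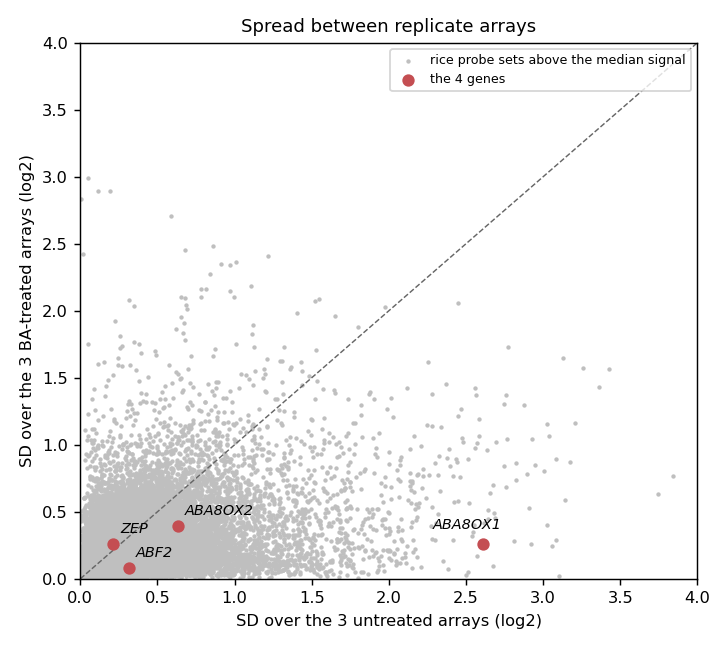
SD of log2 signals over the 3 untreated arrays (x axis) and the 3 BA-treated arrays (y axis), with the rice probe sets above the median signal in grey, the 4 genes in red and a dashed line of equal spread. ABA8OX1 lies far to the right at 2.61 against 0.26, and ZEP lies just above the dashed line.

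ABF2, the signalling gene, was lower in BA-treated leaves. Its signals were 500, 418 and 324 in the untreated replicates and 135, 125 and 122 in the BA-treated ones. Every BA-treated array lay below every untreated array, and the lowest untreated signal was 2.39 times the highest BA-treated signal. The means were 127 ± 7.05 in BA-treated and 414 ± 88.2 in untreated leaves (SD, n = 3 each). The log2 change was -1.67 (standard error 0.17), or 3.19-fold lower. With single arrays left out the log2 change stayed between -1.84 and -1.52, and the groups did not overlap in any of these 6 settings. Untreated replicate 3, the lowest untreated array for ABA8OX1, was also the lowest for ABF2.

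Of the 4 members, 1 (ABF2) had an adjusted p under 0.05 from limma, against 0.159% of all probe sets. At the study's thresholds of over 1.5-fold and an unadjusted p under 0.05, ABA8OX2 and ABF2 passed, against 3.89% of all probe sets. The groups did not overlap for the same 2 genes, against 14.0% of all probe sets. As the members were chosen on this contrast, nothing is read from these counts. The adjusted p of ABF2 was not under 0.05 in 12 of 17 alternatives, among them the replicate block and 5 of the 6 settings that left out an array, and it passed without untreated replicate 3. ABA8OX2 passed in 2 alternatives, array weights and the eBayes trend, and in the latter ABF2 did not. In the fit as reported ABA8OX2 was not called. The calls in the alternatives are a description as well, and nothing is read from them.

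**Figure D3:**
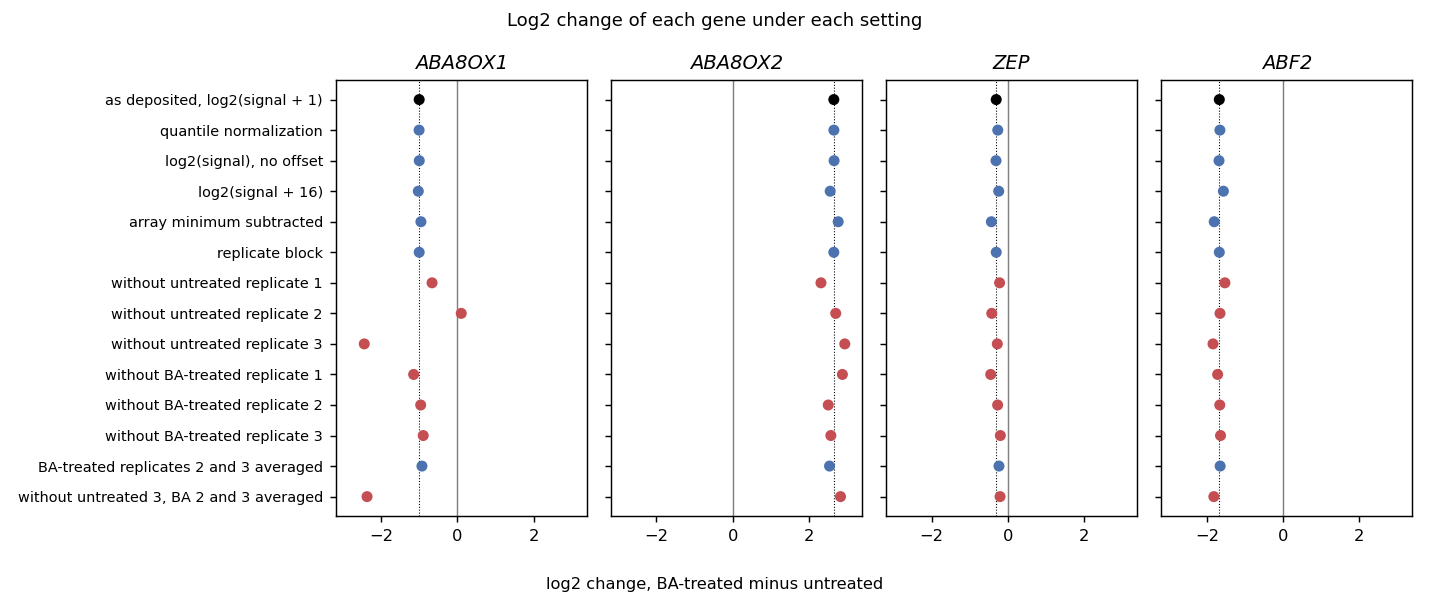
Log2 change (BA-treated minus untreated, x axis) of each gene with the deposited values (black), with arrays left out (red) and with other settings (blue), with a dotted line at the black value. ABA8OX2 stays above 0 and ABF2 and ZEP below 0 in every setting shown, whereas ABA8OX1 runs from -2.45 to 0.10.

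The other genes of ABA synthesis, signalling and response had more log2 changes below than above 0, but none passed the test. Of 41 such genes that could be read by name, 30 had a log2 change below 0 and 11 above, with a median of -0.24. Over all rice probe sets the median was -0.0035 and 49.0% lay above 0. With single arrays left out 26 to 30 of the 41 were below 0, the lowest number without untreated replicate 1. Without the carotenoid genes PSY1, PSY2, PSY3 and PDS, which also serve other products, 27 of 37 were below 0, with a median of -0.13. Some of the genes below 0 were near the floor of 16, among them RAB16B, RAB16C, RAB16D and VP1, and the median of -0.24 is the value of RAB16B. Of the 35 listed genes read from probe sets above the median signal, 26 were below 0 and 9 above, with a median of -0.34. That median signal is itself close to the floor. Limma called 0 of the 41 at an adjusted p under 0.05. At an unadjusted p under 0.05, 7 were lower and 0 higher, against 4.25% and 4.24% of all probe sets. With single arrays left out the numbers were 4 to 10 lower and 0 to 2 higher. The 41 genes were read from their brightest probe sets, whereas the shares here cover all probe sets, dim ones included. In limma on the 28629 probe sets above the median signal, 3121 had an unadjusted p under 0.05 in either direction. Of the 35 listed genes among these, 6 were lower and 0 higher at that threshold. Groups did not overlap for 10 of the 41 genes that were lower, against 7.30% of all probe sets, and for 0 that were higher. RAB16B and RAB16D, near the floor, were among the 10. In the lists of synthesis, breakdown, receptors and factors only part of the rice genes carried a name that could be read. The NCED genes of the cleavage step and the hydroxylase gene ABA8OX3 had no probe set listed for them alone, so they were not read.

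Among 5 other synthesis genes, 4 had a log2 change below 0. PSY3, a phytoene synthase at the entry of the carotenoid pathway, had signals of 43.2, 48.6 and 33.2 in untreated and 19.5, 18.9 and 19.6 in BA-treated leaves. The BA-treated signals sat close to the floor of 16, and all lay below the untreated ones. The log2 change was -1.05 (standard error 0.15, adjusted p = 0.097 from limma). PSY2, another phytoene synthase, had -0.38 (standard error 0.13, adjusted p = 0.47; -0.25 without BA-treated replicate 3), and PDS, the phytoene desaturase that follows, had 0.18 (standard error 0.10, adjusted p = 0.73). The list also held PSY1 at -0.78 (standard error 0.47, adjusted p = 0.79 from limma) and MHZ4, which acts between zeaxanthin epoxidase and the cleavage step, at -0.01. The groups overlapped for PSY1, and its other probe sets had 0.13 and -0.50. The list for breakdown and conjugation held, beside the members, the beta-glucosidase genes BGLU10 and BGLU16. These are not hydroxylases, and how they act on ABA was not examined here. BGLU10 read 298 in untreated replicate 3 against 36.4 and 26.4 in the other untreated leaves, and its log2 change was -1.46 (standard error 0.89, adjusted p = 0.80 from limma). Without untreated replicate 3 it was -0.39, and the other probe sets of BGLU10 had -0.06 and -0.54.

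In the signalling chain most phosphatase genes had lower values with BA, but none was called. Of 8 group A PP2C genes, 7 had a log2 change below 0, with a median of -0.59, and 2 were lower at an unadjusted p under 0.05. ABIL1 had signals of 185, 135 and 83.0 in untreated and 56.6, 66.2 and 66.1 in BA-treated leaves, with no overlap. Its log2 change was -1.01 (standard error 0.29, adjusted p = 0.37 from limma). PP2C09 had -0.86 (standard error 0.33, adjusted p = 0.55), and ABIL2, the 1 gene above 0, had 0.12 (standard error 0.19, adjusted p = 0.93). For the receptor gene PYL5 the log2 change was 0.28 (standard error 0.16, adjusted p = 0.75).

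All 10 SAPK kinase genes were measured, and 8 had a log2 change below 0, with a median of -0.21 and a range from -0.71 to 0.28. SAPK7 was the 1 kinase gene whose groups did not overlap, at 113.6, 84.7 and 71.4 untreated and 45.4, 63.4 and 61.5 with BA. Its log2 change was -0.64 (standard error 0.21, adjusted p = 0.46 from limma). SAPK3 had -0.58 (adjusted p = 0.76), or -0.27 without untreated replicate 3. SAPK4 had 0.28 (adjusted p = 0.86), or 0.084 without BA-treated replicate 2, and SAPK6 had 0.02 (adjusted p = 0.99).

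Beside ABF2, 4 transcription factor genes of the ABA lists were measured. HOX22, a homeodomain-leucine zipper gene, had signals of 354, 127 and 257 in untreated and 40.5, 87.5 and 97.3 in BA-treated leaves. The log2 change was -1.67 (standard error 0.48, adjusted p = 0.38 from limma), the same value as for ABF2 but with a standard error of 0.48 against 0.17. HOX24, of the same family, read between 18.7 and 19.4 with BA, near the floor, and its log2 change was -1.22 (standard error 0.47, adjusted p = 0.56). Its untreated signals were 98.2, 24.8 and 38.9, and without untreated replicate 1 the log2 change was -0.68. TRAB1, a bZIP factor of the group that holds ABF2, had 191 ± 49.3 untreated and 174 ± 17.7 with BA (SD, n = 3 each), a log2 change of -0.11. VP1, the B3-domain factor best known from the seed, was near the floor in both groups at means of 20.6 and 19.1.

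Genes that ABA is known to induce gave no common direction. Of 11 measured, 6 had a log2 change above 0 and 5 below, with a median of 0.03 and 0 at an unadjusted p under 0.05. The dehydrin and LEA genes RAB16B, RAB16C, RAB16D, RAB25 and LEA3 had group means between 17.0 and 24.6, close to the floor, so a fold could hardly show there. The median of 0.03 is the value of RAB25, so it says little about direction. Of brighter targets, DHN1 had -0.35 (standard error 0.44, adjusted p = 0.92 from limma) and SALT had 0.12 (standard error 0.22, adjusted p = 0.94). The log2 change of RAB16B was -0.24 (standard error 0.10, adjusted p = 0.62). RAB21, a dehydrin, had 0.53 (standard error 0.50, adjusted p = 0.88), which came from BA-treated replicate 1 at 110, against 30.8 to 33.2 on the other 5 arrays. The senescence- and stress-related NAC gene NAC5 had signals of 429, 1162 and 268 in untreated and 355, 211 and 219 in BA-treated leaves, and its log2 change was -1.01 (standard error 0.55, adjusted p = 0.75). Without untreated replicate 2 it was -0.42. Like ABA8OX1, NAC5 was highest in untreated replicate 2 and lowest of the untreated arrays in replicate 3. SNAC2, another NAC gene, had a log2 change of 0.27 (adjusted p = 0.90), or 0.02 without untreated replicate 3.

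**Figure D4:**
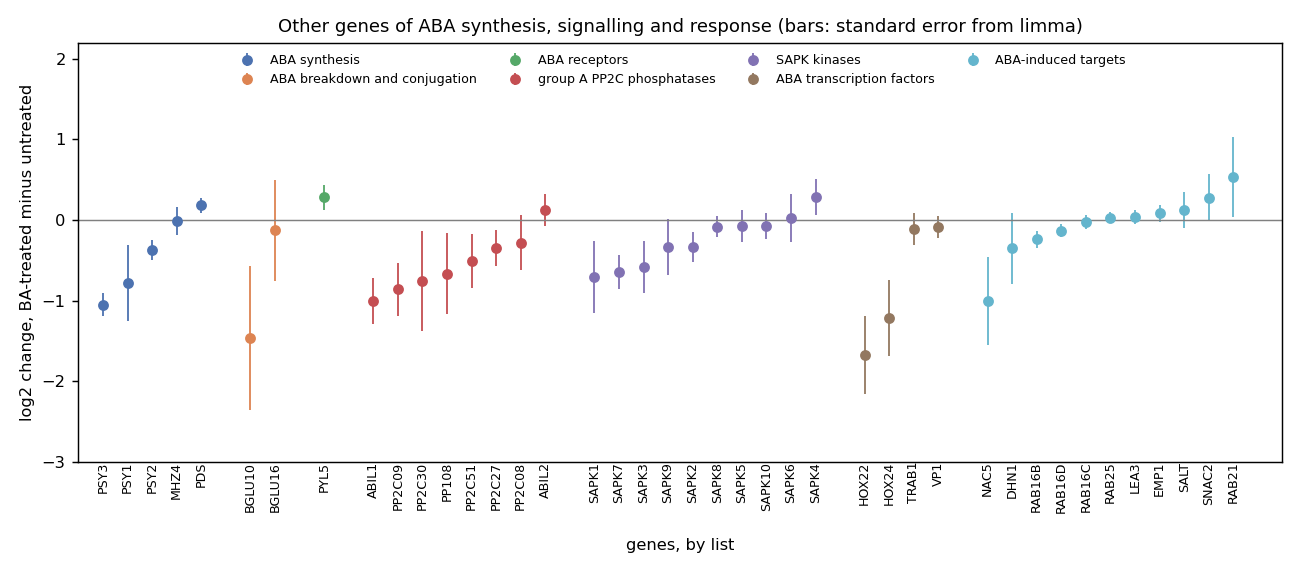
Log2 change (BA-treated minus untreated, y axis) of the 41 other ABA genes, grouped by list and coloured as in the key, with bars of 1 standard error from limma. Most points lie below 0, the PP2C genes with 1 exception, and the ABA-induced targets lie on both sides.

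The genes most like each member were sought among 891 named genes whose log2 signals ranged over at least 1 across the 6 arrays, by Pearson's r over those arrays. With 6 arrays that share the treatment difference or the spread among untreated arrays, such values are a description, and they carry no p. Closest to ABA8OX1 were TPP7, a trehalose-6-phosphate phosphatase gene, SAP11, a zinc finger gene of the stress-associated protein family, and WRKY71, a WRKY factor gene (r = 0.995, 0.994 and 0.993). TPP7 read 933, 2376 and 48.3 in the untreated replicates and 322, 235 and 238 in the BA-treated ones. Its BA-treated arrays therefore also lay inside the untreated range, and so did those of SAP11 and WRKY71. Like ABA8OX1, these genes were highest in untreated replicate 2 and lowest in untreated replicate 3.

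Closest to ABA8OX2 were DRB2, which encodes a double-stranded RNA-binding protein and shares its name with another rice gene, RR4, a type-A response regulator gene, and the calmodulin gene CaM-1 (r = 0.991, 0.990 and 0.988). RR4 read 108, 179 and 179 untreated and 328, 489 and 490 with BA. In both groups replicate 1 was lowest, as for ABA8OX2. Closest to ABF2 were HOS66, a homeobox gene, TBL15, a trichome birefringence-like gene, and the metallothionein gene MT2B (r = 0.994, 0.992 and 0.986), each with no overlap between the groups. Closest to ZEP were the auxin-response gene IAA30, the tonoplast aquaporin gene TIP2;2 and the sugar transporter gene SWEET4, at a lower likeness (r = 0.944, 0.944 and 0.940).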

How the data were processed

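RNA of 3 BA-treated and 3 untreated samples was hybridized to one-colour Affymetrix rice arrays. Per the labels, the deposited intensity values were summarised for each probe set with PLIER and a variance stabilization by the authors. PLIER and RMA are both listed in the processing notes of the submitters. The sources used here do not give their versions, what RMA was used for or any between-array scaling. The 123 control probe sets were left out, and 57258 were kept with no filter and no further normalization.

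Values were taken as log2(signal + 1) and fitted in R 4.3.3 with the lmFit and eBayes functions of limma 3.58.1, without a replicate block, with Benjamini-Hochberg adjustment over all 57258 probe sets. Every adjusted p is from that fit unless an alternative is named with it. The fit was tested on simulated data with the same spread in both groups. That test does not cover the wider untreated spread seen on these arrays.

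Names came from the platform annotation, in which 22436 probe sets had 1 gene and 95 had several. All 17905 such genes were found by identifier in RefSeq's table for the rice assembly ASM3414082v1, and 2430 carried a name there. A listed gene was matched by symbol or synonym and read from its brightest probe set, and a name tied to several genes was dropped. The files give no genome build, so no coordinates are given. The members and lists were chosen with earlier results of these data known. From each ABA list the text names up to 4 genes with the smallest p, at most 2 in each direction, and any called gene. For each member it names the 3 most alike genes. MHZ4, PSY1, TRAB1, VP1, RAB16C, RAB16D, RAB25, LEA3, DHN1 and SALT were named after their values were seen. With 6 arrays, precision is limited by their number.

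Alternatives were quantile normalization, log2(signal), log2(signal + 16), subtraction of each array's lowest signal, the replicate number as a block, each array left out, BA-treated replicates 2 and 3 averaged, probe sets above the median, eBayes trend, array weights and an ordinary test with pooled variance.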

Additional observations from a re-analysis of the deposited data

How the results depend on the processing

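ABA8OX2, ABF2 and ZEP kept their direction in the 12 settings tried for them beside the replicate block, which cannot change a log2 change in this balanced design. Leaving out single arrays gave log2 changes from 2.32 to 2.95 for ABA8OX2, -1.84 to -1.52 for ABF2, -0.45 to -0.20 for ZEP and -2.45 to 0.10 for ABA8OX1. ABA8OX2 minus ABA8OX1 then ran from 2.61 to 5.39. Of 17 alternatives, 11 called 0 members, 5 called 1 (ABA8OX2 with eBayes trend, otherwise ABF2) and 1 called 2. These counts are a description too, since the members were chosen on this contrast.

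Over all probe sets the count called higher or lower was 53 and 38. It was 0 and 0 with the replicate block, and 24 and 24 with the lowest signal subtracted. It was 0 and 0 with BA-treated replicates 2 and 3 averaged, and 0 and 0 when untreated replicate 3 was left out as well, a setting chosen after seeing the data. With array weights it was 150 and 130, with eBayes trend 73 and 63, and the ordinary test gave 1 and 0. Leaving out single arrays gave 0 to 98 higher and 0 to 82 lower. Both were 0 without BA-treated replicate 2 or 3, with 3195 and 3185 probe sets at an unadjusted p under 0.05. At the study's thresholds 991 were higher and 1236 lower, against 2286 and 2692 with the lowest signal subtracted and 685 and 802 with the ordinary test. The causes were not tested. Deviations of same-numbered arrays correlated at 0.42, -0.01 and 0.42. The reported fit used no block, because the study states no covariate. Untreated replicates 1 and 3 each correlated best with the BA-treated array of the same number. Whether the arrays were paired was not tested. Untreated replicate 2 correlated best with BA-treated replicate 1, at 0.077.

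Of the other ABA genes 1, PSY3, was called lower without untreated replicate 3 (adjusted p = 0.042 from limma) or with array weights (0.033), over a range from 0.033 to 0.47. Single arrays left out gave 0 to 1 called lower. The sign turned for BGLU16 with the lowest signal subtracted (0.13) and for SAPK6 with array weights (-0.092). Leaving out single arrays gave -0.55 to 0.62 for BGLU16, -0.20 to 0.31 for SAPK6, -0.053 to 0.31 for ABIL2 and -0.065 to 0.84 for RAB21.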
